A study of Mus musculus with 6 samples.

Results

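The genes described here are 10 members of the Notch signalling pathway, measured by RNA sequencing in cultured mouse microglia. They were taken by name: the receptors Notch1, Notch2 and Notch4, the ligands Jag1 and Jag2, the DNA-binding factor Rbpj with its coactivator Maml2, the target genes Hes1 and Hey1, and the Deltex ligase gene Dtx4. All 10 were found among the 48005 gene entries of the count table, and all 10 had enough counts to be tested. Entries of 8 members hold a single gene. Notch2 shares its entry with Gm42820, an unverified gene model inside it, and Maml2 shares its entry with Gm22643, a miRNA gene model, so the counts of these 2 entries are uncertain by what those models add.

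Microglia, the resident macrophages of the brain, came from mice of the outbred CD1 background. Of 6 libraries, 3 were from microglia given the control treatment and 3 from microglia given extracellular vesicles (EVs), the membrane-bound particles that cells release. The EVs had been collected by serial centrifugation from primary neural stem cells (NSCs) grown from the subventricular zone, a germinal region of the mouse brain. No transgene, Cre driver or gene deletion is named for either group. The labels give neither the age of the animals nor the EV dose, the time of exposure or what the control treatment was. Nor do they tell whether libraries of the same group are separate cultures or separate animals, and the p-values here therefore rest on a spread between samples that may be only technical. Libraries carry the name of their group and the letter A, B or C of their titles.

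Notch receptors are single-pass membrane proteins that are activated by Jagged and Delta-like ligands on a neighbouring cell. Ligand binding exposes the receptor to an ADAM protease and then to gamma-secretase, and the released intracellular domain enters the nucleus, where it joins RBPJ and a Mastermind-like coactivator on DNA and switches on genes of the Hes and Hey families of transcriptional repressors. Without the intracellular domain, RBPJ sits in complexes with corepressors. In macrophages and microglia the pathway is known for its interplay with inflammatory gene expression.

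The total count per library was 109744701 to 162544804. Values below are normalised counts, in CPM, for which TMM scaling brings the counts of each library to one shared total, and log2 fold changes are those of EV-treated against control libraries from edgeR's quasi-likelihood test, with standard errors (SE) and p-values adjusted by Benjamini-Hochberg over all 16605 entries tested. An entry is called as risen or fallen where the adjusted p is under 0.05. In bulk samples like these, fewer cells of a type and less RNA per cell cannot be told apart. Marker genes of microglia and macrophages summed to 6029 to 7535 CPM in control and 3980 to 4273 CPM in EV-treated libraries, and 7 of the 10 markers fell. Csf1r, Itgam and Cd68 were at 692 CPM or more in every library, whereas Cx3cr1, a fractalkine receptor of resting microglia, was at 226 to 394 CPM in control and 1.76 to 2.98 CPM in EV-treated libraries. P2ry12, a purinergic receptor used to mark resting microglia, was at 2.90 to 5.06 CPM in control libraries and at most 0.123 CPM in EV-treated libraries. Csf1r, Itgam and Cd68 were thus abundant in both groups, and P2ry12 was low in both. Among general macrophage markers, Ptprc, Spi1 and Cd68 fell (log2 fold changes of -0.67, -0.62 and -0.56). Csf1r, Itgam and Aif1 did not pass, and Aif1 was at 18.7 to 58.8 CPM over all libraries.

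The 10 members did not move in one direction. Notch1, Notch2, Rbpj and Dtx4 rose, Notch4, Jag1 and Maml2 fell, and Jag2, Hes1 and Hey1 did not pass the test. A share of 66.5% of all entries tested was called, 33.0% as risen and 33.5% as fallen, so that 7 of 10 members called lies near the background and is no result about the pathway. For 6 members the 2 groups of libraries did not overlap, against 71.3% of all entries. The median log2 fold change was 0.03 over the members and -0.02 over all entries tested.

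Scaling bears on these directions. With library totals alone in place of TMM, the median of all entries moved from -0.02 to -0.38 and rises made up 34.0% of all calls in place of 49.7%. With upper-quartile scaling the median was -0.14 and rises made up 44.1% of calls. The 10 members kept the sign of their log2 fold change in all 16 alternatives that could be fitted for them, and the members whose call changed are named with their values.

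**Figure D1:**
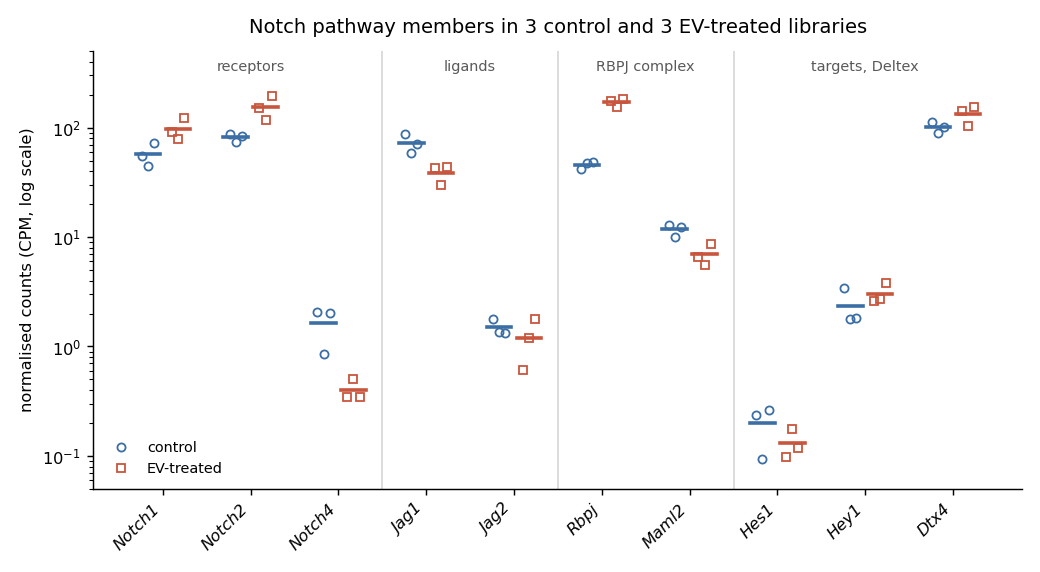
Normalised counts (CPM, log scale) of the 10 members in 3 control (circles) and 3 EV-treated (squares) libraries, with bars at the group means, ordered by role. The 3 EV-treated libraries lie above all controls for Notch1, Notch2 and Rbpj, below them for Notch4, Jag1 and Maml2, and overlap them for Jag2, Hes1, Hey1 and Dtx4.

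Among the receptors, Notch1 and Notch2 rose and Notch4 fell. Notch1 (ENSMUSG00000026923, chr2:26457903-26516663, minus strand, GRCm38), the most widely expressed receptor of the family, was at 55.5, 45.1 and 71.9 CPM in control A, B and C and at 92.0, 79.4 and 123 CPM in EV-treated A, B and C. Each EV-treated library was above every control library. The log2 fold change was 0.77 (SE 0.20, adjusted p = 0.00651). With library totals alone it was 0.41 and did not pass (adjusted p = 0.111).

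Notch2 (ENSMUSG00000027878, chr3:98013527-98150361, plus strand), a receptor with roles in myeloid and marginal zone B cell development, was at 86.8, 74.2 and 83.8 CPM in control and 151, 118 and 195 CPM in EV-treated libraries. The controls lay close together, the EV-treated libraries spread more widely, and the groups did not overlap. The rise was 0.92 on the log2 scale (SE 0.17, adjusted p = 0.000945), a 1.89-fold difference.

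For both receptors the change was spread along the gene. The deposited counts are given per exon bin, a stretch of exon that is cut wherever annotated exons begin or end, and so the bins of a gene can be compared with one another. All 39 tested coding bins of Notch1 with at least 10 counts in every library were higher in EV-treated libraries, by 1.42 to 2.29 times. The 34 such bins of Notch2 were all higher too, by 1.67 to 2.75 times. No bin of either gene passed the test for changed use within the gene, edgeR's diffSpliceDGE.

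Notch4 (ENSMUSG00000015468, chr17:34564268-34588503, plus strand), a receptor best known from endothelial cells, was at 2.06, 0.851 and 2.04 CPM in control and 0.347, 0.510 and 0.344 CPM in EV-treated libraries. These are summed counts of 271, 108 and 385 against 43, 58 and 44, over 55 bins. The highest EV-treated library was still below control B, the lowest control. The gene fell by 2.05 on the log2 scale (SE 0.37, adjusted p = 0.000831), which is 4.13-fold. By its single most covered bin the log2 fold change was -1.62 and did not pass (adjusted p = 0.0870), and no bin held enough counts for a test of use within the gene.

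Endothelial markers were set beside this fall. Of 10 markers, 6 could be tested, 3 rose and 1 fell. Their summed level was 77.3 to 175 CPM in control and 43.6 to 48.6 CPM in EV-treated libraries, nearly all of it in control libraries from Flt1, a VEGF receptor gene, at 71.1 to 170 CPM. Cdh5, Pecam1 and Kdr, which encode endothelial adhesion molecules and a VEGF receptor, were higher in the EV-treated libraries (log2 fold changes of 3.81, 3.24 and 2.32). Cldn5, Emcn, Sox17 and Erg were under 0.1 CPM in every library. A part of endothelial cells in the level of Notch4 was not tested.

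The make-up of the receptor pool was read as the share of each receptor in the summed counts per kb of exon, which does not depend on the scaling of libraries. A read that spans neighbouring bins may have been counted in each, so the sizes of different receptors' shares compare only roughly. Notch2 held 60.9%, 62.8% and 54.2% of the pool in control A, B and C, and 63.6%, 61.0% and 62.7% in EV-treated A, B and C. Notch1 held 36.4%, 35.6% and 43.5% in control and 36.1%, 38.4% and 37.0% in EV-treated libraries. Both shares overlapped between groups (two-sided exact permutation tests, p = 0.4 for Notch2 and p = 0.9 for Notch1). Leaving out control C turned the Notch1 difference from -1.33 to 1.14 percentage points.

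Notch4 held 2.38%, 1.19% and 2.18% of the receptor pool in control and 0.241%, 0.436% and 0.182% in EV-treated libraries. Its groups did not overlap, and the exact permutation test gave p = 0.1, the smallest p that 3 against 3 libraries allow. Notch4 had fallen, and Notch1 and Notch2, which made up nearly all of the pool, had risen, each without overlap between groups. This separation was therefore fixed in advance, and its p is no further evidence. Notch3, the remaining receptor, held 0.234% ± 0.104 (SD, n = 3) in control and 0.107% ± 0.0627 (SD, n = 3) in EV-treated libraries (exact permutation p = 0.2). Its level was 0.213, 0.236 and 0.117 CPM against 0.0646, 0.123 and 0.320 CPM, and the log2 fold change of -0.14 (SE 0.59, adjusted p = 0.855) changed sign when single libraries were left out.

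Of the ligands, Jag1 was the abundant one and fell. Jag1 (ENSMUSG00000027276, chr2:137081456-137116644, minus strand) was at 87.7, 59.3 and 70.9 CPM in control and 42.5, 29.7 and 44.0 CPM in EV-treated libraries. No EV-treated library reached the lowest control, control B. The log2 fold change was -0.91 (SE 0.18, adjusted p = 0.00150), and 27 of 27 coding bins with at least 10 counts in every library were lower, at 0.424 to 0.667 times the control level. None of its 29 bins changed in use.

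Jag2 (ENSMUSG00000002799, chr12:112907819-112929776, minus strand), the paralogue of Jag1, was at 1.79, 1.35 and 1.34 CPM in control and 0.613, 1.19 and 1.79 CPM in EV-treated libraries. EV-treated C was as high as control A, and EV-treated A was the lowest of the 6. The log2 fold change of -0.32 (SE 0.35) did not pass (adjusted p = 0.443).

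Over the 8 ligand genes listed, 4 were tested, 1 rose and 1 fell, beside 33.0% risen and 33.5% fallen over all entries tested. The riser was Dner, a transmembrane ligand best known from neurons, which was at 0.152, 0.488 and 0.170 CPM in control and 1.95, 2.07 and 1.87 CPM in EV-treated libraries (log2 fold change 2.88, SE 0.42, adjusted p = 0.000187). Control B was the highest control, and without it the log2 fold change was 3.58. Dll1, a Delta-like ligand, was at 0.660, 0.536 and 1.03 CPM in control and 0.283, 0.290 and 0.726 CPM in EV-treated libraries, and its log2 fold change of -0.78 (SE 0.43) did not pass (adjusted p = 0.138). It passed with library totals alone, with no filter, with the replicate block and without EV-treated C, and leaving out 1 library gave -1.39 to -0.48. Dll4, a Delta-like ligand of sprouting vessels, was at no more than 0.149 CPM in any library and was not tested. It held 7, 5 and 5 counts in control A, B and C and 13, 17 and 9 counts in EV-treated A, B and C.

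Jag1 was also read against Notch1 and Notch2, the receptors that rose. Per kb of exon, the ratio of Jag1 to Notch1 and Notch2 together was 1.44, 1.16 and 1.07 in control A, B and C and 0.409, 0.354 and 0.325 in EV-treated A, B and C. The mean ratio was 1.23 ± 0.194 (SD, n = 3) in control and 0.362 ± 0.0427 (SD, n = 3) in EV-treated libraries, with no overlap (two-sided exact permutation p = 0.1, the smallest possible). Jag1 had fallen and both receptors had risen, each without overlap between groups, so this separation was fixed in advance. The ratio gives the size of the shift, and its p is no further evidence.

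Rbpj had the smallest adjusted p of the 10 members, and its log2 fold change was exceeded in size only by that of Notch4. Rbpj (ENSMUSG00000039191, chr5:53466152-53657362, plus strand), which encodes the DNA-binding factor that all 4 receptors signal through, was at 41.6, 47.5 and 48.6 CPM in control and 174, 154 and 183 CPM in EV-treated libraries. Every EV-treated library was far above every control, and both groups were tight. The gene rose by 1.89 on the log2 scale (SE 0.12, adjusted p = 5.08e-07), a 3.71-fold difference. It stayed called in all 16 alternatives, with log2 fold changes of 1.53 to 2.05.

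A processed pseudogene, Rbpj-ps3, has an entry of its own at 409, 398 and 729 counts in control and 2128, 1672 and 2181 counts in EV-treated libraries (log2 fold change 2.27, SE 0.14, adjusted p = 6.06e-07). It rose as Rbpj did, at a lower level. How reads that match both sequences were assigned is not given in the sources used here, so the split between these 2 entries is uncertain.

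Exon bins of Rbpj did not all move alike. Of 8 members with enough counts per bin, 2 had changed bin use, Rbpj (Simes adjusted p = 9.92e-09) and Maml2 (Simes adjusted p = 5.17e-05), against 21.6% of the 12265 genes tested. In Rbpj, 4 of 22 tested bins passed, against 4.21% of all bins tested. Both genes stayed called in all 9 alternatives of this test.

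At the 5' end, the bin chr5:53590368-53590470, which lies in the first exon of the transcripts Rbpj-201 and Rbpj-208, held 11, 22 and 53 counts in control and 203, 207 and 253 counts in EV-treated libraries. That is a 10.1-fold higher normalised level, whereas 14 coding bins that 5 or 6 of the 6 coding transcripts share were together 4.12-fold higher. Its use within the gene was higher by 1.39 on the log2 scale (adjusted p = 5.11e-06), and that of the bin of 16 bases next to it by 1.30 (adjusted p = 1.62e-05). A read that spans neighbouring bins may have been counted in each, so these 2 bins are not separate evidence.

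Not all first exons followed. The first-exon bin of Rbpj-203, chr5:53590487-53590724, was 4.83-fold higher and its use did not pass (log2 difference 0.38, adjusted p = 0.341). The first-exon bin of Rbpj-207, chr5:53590981-53591980, held 50, 49 and 100 counts in control and 69, 66 and 119 in EV-treated libraries, a 1.59-fold higher level. Its use was lower by a log2 difference of -1.22 (adjusted p = 0.000245).

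The sequence just upstream of the Rbpj-201 first exon is shown because the bins whose use rose most lie in the first exon that follows it. It covers chr5:53590096-53590213 on the plus strand of GRCm38.p6 and is the part of a RefSeq promoter window that precedes the first annotated exon base, with capitals marking TGGGAA, the core of the RBPJ motif, read on both strands.
Rbpj-201 upstream: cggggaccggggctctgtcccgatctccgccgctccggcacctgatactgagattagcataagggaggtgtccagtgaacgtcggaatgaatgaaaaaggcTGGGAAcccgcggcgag
These 118 bases held 1 match. The full RefSeq window of 250 bases, which runs on into the first exon, held 2, and the second RefSeq window of Rbpj, which overlaps it, held 1. Matches to these 6 letters on either strand occurred in 21.6% of the 32851 RefSeq promoter windows when the 250 bases before the start were searched, and the longer GTGGGAA, which contains TGGGAA, occurred in 5.42%. A match describes letters in the window and is no evidence of binding.

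At the 3' end, the bin chr5:53656138-53657358 covers 1221 bases of distal 3' untranslated region. It held 817, 964 and 1847 counts in control A, B and C and 1529, 1269 and 1929 counts in EV-treated A, B and C. These were 14.9%, 16.0% and 20.1% of the counts of Rbpj in control and 7.10%, 7.24% and 8.22% in EV-treated libraries, with no overlap between groups.

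The normalised level of that distal bin was 1.63-fold higher in EV-treated libraries, while the bin just before it, which holds the last coding bases and the proximal untranslated region, was 3.91-fold higher. Its use was lower by a log2 difference of -1.18 (adjusted p = 3.47e-09). Messenger RNA of Rbpj in EV-treated libraries thus carried a smaller share of counts in the distal untranslated region. The 3' ends of transcripts were not mapped.

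Maml2 (ENSMUSG00000031925, chr9:13297957-13709388, plus strand), which encodes a Mastermind-like coactivator that bridges the receptor's intracellular domain and RBPJ to histone acetyltransferases, was at 12.98, 10.01 and 12.3 CPM in control and 6.60, 5.53 and 8.71 CPM in EV-treated libraries. All EV-treated libraries were below all controls. The gene fell by 0.76 on the log2 scale (SE 0.18, adjusted p = 0.00442).

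The bins of Maml2 did not all move alike. The first 5 bins, which belong to the long transcript Maml2-202 and, for the fifth, also Maml2-201, summed to 366, 264 and 442 counts in control and 306, 213 and 382 counts in EV-treated libraries. Their normalised level was 2.40 ± 0.352 CPM (SD, n = 3) in control and 2.44 ± 0.556 CPM (SD, n = 3) in EV-treated libraries. Gm22643, the miRNA gene model joined to this entry, lies at chr9:13621226-13621326, within the stretch that these first 5 bins cover. What it adds to their counts was not tested. The last 5 bins summed to 1321, 993 and 1841 counts in control and 512, 416 and 734 in EV-treated libraries.

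The last 5 bins went from 9.21 ± 1.20 CPM (SD, n = 3) to 4.51 ± 1.09 CPM (SD, n = 3), which is 0.490 times the control level. As a share of the gene's counts, the first 5 bins held 21.4%, 20.8% and 19.0% in control and 37.4%, 33.9% and 34.2% in EV-treated libraries. Between these blocks lies bin 6, chr9:13662460-13662653, the untranslated first exon of the transcript Maml2-203, which held 23, 14 and 39 counts in control and 0 counts in all 3 EV-treated libraries.

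That bin's level was at least 6.64-fold lower in EV-treated libraries, taking a floor of 3 counts per library, which covers counting error only. Its use within the gene passed the test (adjusted p = 3.27e-05). Use of bin 2, a coding bin of Maml2-202, was higher by a log2 difference of 0.94 (adjusted p = 0.00583), and did not pass when control A or control C was left out (adjusted p = 0.0592 and 0.0597). Counts were thus lower from the first exon of Maml2-203 on, both in the exons that all 3 transcripts share and in the 3' untranslated bin of Maml2-202, and the 5 bins upstream of it differed between groups by less than their spread.

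Upstream sequences of these 2 starts are shown because the bins after the first start differed between groups by less than their spread, while those from the second start on were lower. Both are read from RefSeq promoter windows on the plus strand of GRCm38.p6 and stop before the first exon base, at chr9:13297708-13297956 for Maml2-202 and chr9:13662210-13662459 for Maml2-203, with capitals marking TGGGAA on either strand.
Maml2-202 upstream: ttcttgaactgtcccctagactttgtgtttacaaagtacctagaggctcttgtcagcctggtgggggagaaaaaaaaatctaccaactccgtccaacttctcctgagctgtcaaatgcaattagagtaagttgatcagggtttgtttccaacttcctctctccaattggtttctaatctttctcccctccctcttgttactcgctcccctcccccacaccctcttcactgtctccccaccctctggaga
Maml2-203 upstream: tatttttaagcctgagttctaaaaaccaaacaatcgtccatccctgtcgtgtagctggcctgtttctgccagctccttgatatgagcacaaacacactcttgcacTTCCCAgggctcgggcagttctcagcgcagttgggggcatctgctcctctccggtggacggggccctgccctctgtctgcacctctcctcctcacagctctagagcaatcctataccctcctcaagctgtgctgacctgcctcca
The Maml2-202 window held 0 matches and the Maml2-203 window held 1, on the minus strand. RefSeq windows were matched for 7 of the 10 members, 9 windows in all. Outside Rbpj and Maml2, none of the windows of Notch1, Notch2, Notch4, Jag1 and Jag2 held TGGGAA. The NF-kB consensus was searched on 1 strand only, so that matches on the other strand were missed. On that strand the Notch2 window held 1 match, and 5.0% of all windows held a match. No match says only that these letters are not in the window and strand searched.

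**Figure D2:**
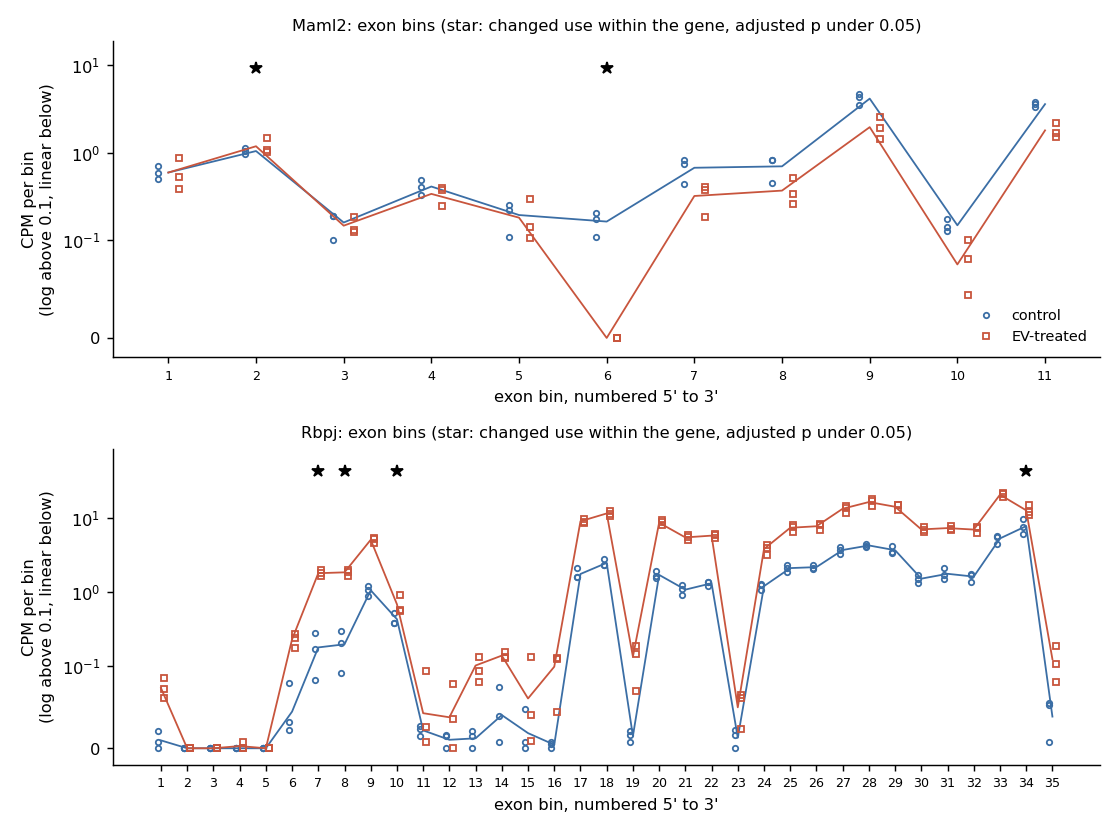
Normalised counts per exon bin (CPM, log above 0.1 and linear below) of Maml2 and Rbpj along the gene from 5' to 3', with 3 control (circles) and 3 EV-treated (squares) libraries, lines at the group means and stars over bins whose use within the gene changed. In Maml2 the lines run together over bins 1 to 5 and part from bin 6, which is at 0 in all EV-treated libraries; in Rbpj the gap between the lines is narrowest at bins 10 and 34 among the well-covered bins.

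The other Mastermind genes were compared as a family. Maml1 was at 19.5, 18.2 and 19.3 CPM in control and 51.4, 43.0 and 58.5 CPM in EV-treated libraries, and rose by 1.42 on the log2 scale (SE 0.13, adjusted p = 6.21e-06). Maml3 was at 11.1, 8.18 and 9.85 CPM in control and 4.38, 4.25 and 6.06 CPM in EV-treated libraries, and fell by 0.99 (SE 0.18, adjusted p = 0.000867). The ratio of Maml1 to Maml2 and Maml3 together, per kb of exon, was 1.28 ± 0.139 (SD, n = 3) in control and 6.13 ± 0.500 (SD, n = 3) in EV-treated libraries, and the ratios of the groups did not overlap (two-sided exact permutation p = 0.1, the smallest possible). Maml1 had risen and Maml2 and Maml3 had fallen, each without overlap between groups, so this separation was fixed in advance. Its p is no further evidence.

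The target gene Hes1 did not pass the test and was barely expressed. Hes1 (ENSMUSG00000022528, chr16:30064384-30067796, plus strand), the classical Notch target in many tissues, held 31, 12 and 50 counts in control and 12, 20 and 15 counts in EV-treated libraries, or 0.235, 0.0945 and 0.265 CPM against 0.0969, 0.176 and 0.117 CPM. Control B was the lowest of all, and the groups overlapped. The log2 fold change was -0.62 (SE 0.50, adjusted p = 0.293).

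Hey1 (ENSMUSG00000040289, chr3:8663359-8667256, minus strand), the other target among the members, was at 3.42, 1.78 and 1.82 CPM in control and 2.59, 2.70 and 3.77 CPM in EV-treated libraries. Control A stood above the other controls, and above 2 of the EV-treated libraries. The log2 fold change of 0.37 (SE 0.28) did not pass (adjusted p = 0.268). Without control A it was 0.73 and passed (adjusted p = 0.0252), and by the most covered bin it was 0.96 and passed (adjusted p = 0.00826).

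Targets of the pathway did not move as one group. Of the 9 genes listed as targets, 7 were tested, 4 rose, 1 fell and 2 did not pass, with a median log2 fold change of 1.15. Over all entries tested, 66.5% were called, 33.0% as risen and 33.5% as fallen, and the median was -0.02. With so few genes, these counts are no result about targets as a group. The risers were Dtx1, Hey2, Hes7 and Hes6. Dtx1, a Deltex gene known as a Notch target in lymphocytes, was at 0.167, 0.284 and 0.159 CPM in control and 13.6, 12.6 and 13.5 CPM in EV-treated libraries, and rose by 6.05 on the log2 scale (SE 0.23, adjusted p = 2.58e-08).

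Hey2, a repressor of the same family as Hey1, had 0 counts in all 3 control libraries and 42, 40 and 53 counts in EV-treated libraries. Against a floor of 3 counts per library, or 0.0208 CPM on average in control, its level was at least 17.7-fold higher in EV-treated libraries (adjusted p = 4.60e-05). Hes7, the repressor of the somite clock, was at 0.0630 to 0.101 CPM in control and 0.622 to 0.774 CPM in EV-treated libraries (log2 fold change 3.09, SE 0.36). Hes6, a Hes protein that counters Hes1, was at 13.3 to 17.7 CPM in control and 30.8 to 40.8 CPM in EV-treated libraries (log2 fold change 1.15, SE 0.15).

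The gene that fell among the targets was Heyl, the remaining Hey gene. It was at 0.167, 0.165 and 0.764 CPM in control and 0.00807, 0.00879 and 0.102 CPM in EV-treated libraries, with control C well above the other controls (log2 fold change -3.17, SE 0.94, adjusted p = 0.0135). The call was lost without control C or without EV-treated A, and its log2 fold change ran from -5.33 to -2.04 when single libraries were left out. Hes5 held 4 counts in EV-treated C and 0 in the other 5 libraries. Nrarp, a feedback inhibitor of the pathway, was at no more than 0.0791 CPM in any library. It held 0, 2 and 0 counts in control A, B and C and 9, 9 and 6 counts in EV-treated A, B and C. Neither was tested.

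Among markers of mural cells and fibroblasts, which can express Heyl, most of those tested were highest in control C, as Heyl was. Col1a1 was at 13.7 CPM in control C and at 6.24 and 6.63 CPM in control A and B. Col1a2, Col3a1, Pdgfrb, Acta2 and Tagln were also highest in control C. Cspg4 was highest in control A, at 399, 176 and 299 CPM in control A, B and C. Dcn was highest in control B, at 0.0473 CPM. The 10 markers summed to 197 to 416 CPM in control, mostly from Cspg4, and to 39.9 to 52.0 CPM in EV-treated libraries. Of 8 tested, 2 rose (Pdgfrb and Dcn) and 4 fell, and Rgs5 and Lum were under 0.1 CPM in every library. The part of these cell types in the level of Heyl was not tested.

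Dtx4 (ENSMUSG00000039982, chr19:12466338-12501454, minus strand), which encodes a Deltex-type ubiquitin ligase, was the member with the highest level per kb. It was at 112, 89.3 and 102 CPM in control and 142, 104 and 154 CPM in EV-treated libraries. EV-treated B fell among the controls, so the groups overlapped. The log2 fold change of 0.40 (SE 0.16) passed narrowly (adjusted p = 0.0463).

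That call did not hold under several alternatives. The log2 fold change was 0.040 with library totals alone (adjusted p = 0.841) and 0.28 with upper-quartile scaling (adjusted p = 0.143), and the call was kept without EV-treated B but lost on leaving out any 1 of the other libraries. All 9 bins of the gene were higher in EV-treated libraries, by 1.24 to 1.48 times.

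The other Deltex genes moved further. Dtx2 was at 15.3, 16.8 and 16.0 CPM in control and 141, 164 and 136 CPM in EV-treated libraries, a rise of 3.197 on the log2 scale (SE 0.12, adjusted p = 2.15e-08). Dtx3l, which works with a PARP in the interferon response, was at 37.8 to 46.4 CPM in control and 91.8 to 100 CPM in EV-treated libraries (log2 fold change 1.21, SE 0.11). Dtx3 fell, from 31.5 to 41.2 CPM in control to 9.50 to 18.4 CPM in EV-treated libraries (log2 fold change -1.49, SE 0.23).

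**Figure D3:**
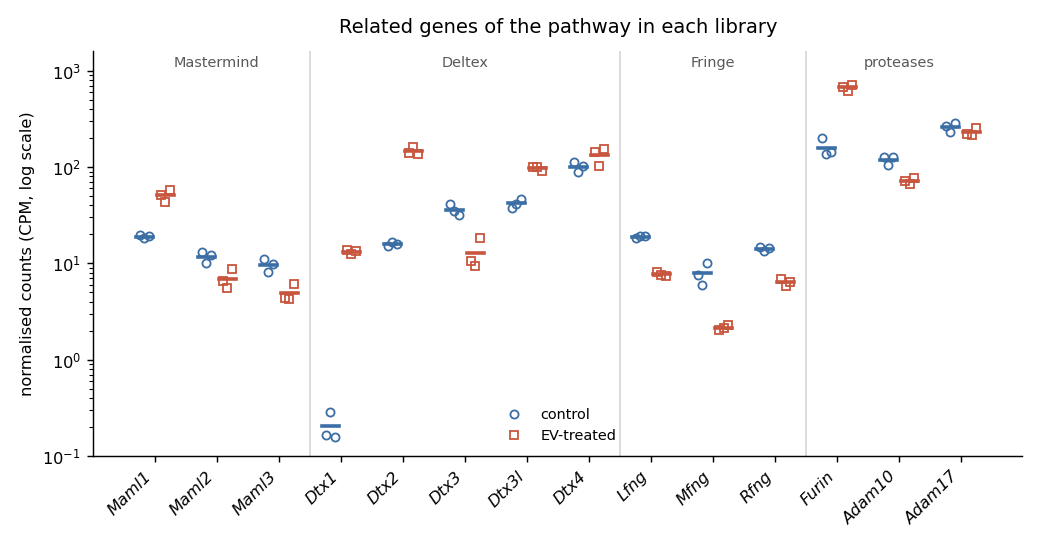
Normalised counts (CPM, log scale) of the Mastermind, Deltex and Fringe genes and of 3 proteases that cleave Notch receptors, in 3 control (circles) and 3 EV-treated (squares) libraries with bars at the group means. Maml1 lies higher and Maml2 and Maml3 lower in EV-treated libraries, Dtx1 shows the widest gap, and all 3 Fringe genes lie lower.

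Levels of the members can be compared with one another only per kb of exon, and then only roughly. A read that spans neighbouring bins may have been counted in each, which would raise the value of genes cut into many short bins. Notch4 has 55 bins over 8.1 kb and Dtx4 has 9 bins over 5.8 kb. In control libraries the order from high to low was Dtx4 (17.5 ± 1.98 CPM per kb, SD, n = 3), Jag1 (12.5 ± 2.46), Notch2 (6.14 ± 0.494), Notch1 (4.04 ± 0.949), Rbpj (3.60 ± 0.294), Maml2 (1.78 ± 0.236), Hey1 (0.717 ± 0.287), Jag2 (0.368 ± 0.0636), Notch4 (0.205 ± 0.0859) and Hes1 (0.0974 ± 0.0447). Neighbours whose ranges over the libraries overlapped were Notch1 and Rbpj, and Notch4 and Hes1. Within single libraries, Notch4 was above Hes1 in every control, while Notch1 and Rbpj changed order between controls. The exon length of Rbpj, 12.8 kb, includes long bins of rare transcripts with few counts, which lowers its value per kb.

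In EV-treated libraries the order became Dtx4 (23.1 ± 4.56 CPM per kb, SD, n = 3), Rbpj (13.4 ± 1.17), Notch2 (11.6 ± 2.90), Notch1 (6.89 ± 1.58), Jag1 (6.65 ± 1.35), Maml2 (1.05 ± 0.246), Hey1 (0.925 ± 0.200), Jag2 (0.295 ± 0.145), Hes1 (0.0638 ± 0.0201) and Notch4 (0.0496 ± 0.0118). Rbpj moved from the fifth place to the second, and Jag1 from the second to the fifth. Rbpj and Notch2, Notch1 and Jag1, Maml2 and Hey1, and Hes1 and Notch4 were neighbours whose ranges over the libraries overlapped. Within single libraries, Maml2 was above Hey1 and Hes1 above Notch4 in every EV-treated library. Rbpj and Notch2, and Notch1 and Jag1, changed order between libraries.

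The wider pathway was read from 9 lists of 85 genes grouped by role, of which 78 could be tested. Of these, 26 rose and 27 fell, their median log2 fold change was -0.10, and 55 had groups that did not overlap. With library totals alone 15 rose and 38 fell. Against a background of 66.5% called, the share of pathway genes called was again near that of all entries. The counts of each list below stand beside the same background, 33.0% risen and 33.5% fallen. They are no result about a list as a group.

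Partners of RBPJ moved in both directions. In the activator complex, 3 of 9 tested genes rose (Rbpj, Maml1 and Crebbp) and 4 fell. Kat2a and Kat2b, which encode related histone acetyltransferases, were lower in EV-treated libraries. Kat2a was at 37.5 ± 0.429 CPM (SD, n = 3) in control and 10.9 ± 0.971 CPM (SD, n = 3) in EV-treated libraries, and Kat2b went from 22.3 to 25.5 CPM to 7.04 to 8.48 CPM (log2 fold changes -1.79 and -1.59). Crebbp, another acetyltransferase gene, rose by 0.55 on the log2 scale (SE 0.19, adjusted p = 0.0299), a call that did not hold with upper-quartile scaling, with library totals alone, by the most covered bin or without any 1 of control B, EV-treated A and EV-treated C.

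Among 18 RBPJ corepressor genes, 4 rose and 7 fell, and the median log2 fold change was -0.14. Scaled by library totals alone, 10 fell and 1 rose, with a median of -0.51. Hdac3, a histone deacetylase gene, rose from 39.9 to 41.9 CPM in control to 79.3 to 85.3 CPM in EV-treated libraries (log2 fold change 1.01, SE 0.09). Spen, which encodes a scaffold that recruits corepressors to RBPJ, rose by 0.72 on the log2 scale (SE 0.20, adjusted p = 0.00920), a call that was lost with library totals alone (0.36, adjusted p = 0.147). Tle1 and Tle4, Groucho-type corepressors that Hes proteins recruit, fell by 1.57 and 1.07 on the log2 scale.

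Genes for the cleavage of receptors also divided. Furin, the protease that cleaves receptors on their way to the cell surface, went from 199, 135 and 145 CPM in control to 683, 617 and 720 CPM in EV-treated libraries (log2 fold change 2.07, SE 0.16, adjusted p = 2.81e-06). Adam10, the protease that cuts ligand-bound receptors, was lower in EV-treated libraries, at 126, 104 and 127 CPM against 71.8, 66.0 and 77.0 CPM (log2 fold change -0.73, SE 0.12, adjusted p = 0.000342). Adam17, a related sheddase, did not pass (log2 fold change -0.20, SE 0.12, adjusted p = 0.168), though it did, as a fall, with upper-quartile scaling and with library totals alone.

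Of 7 gamma-secretase genes, 3 rose and 2 fell. Scaled by library totals alone, 3 fell and 0 rose, and without EV-treated C 3 rose and 0 fell. Psenen, which encodes a small subunit needed for the activity of the complex, rose by 0.63 on the log2 scale (SE 0.12, adjusted p = 0.00119), a call that was lost with library totals alone. Aph1c fell by 0.69 on the log2 scale (SE 0.21, adjusted p = 0.0150). Its log2 fold change was -0.45 and did not pass without EV-treated C (adjusted p = 0.0508). Aph1a had a log2 fold change of -0.23 that passed only narrowly (adjusted p = 0.0473) and was lost in 10 of the alternatives.

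Of 9 genes tested that add sugars to the receptors, 5 fell and 1 rose, with a median log2 fold change of -0.79 beside -0.02 over all entries. The share called, 6 of 9, is near that of all entries (66.5%, with 33.5% fallen). The counts were 8 fallen and 1 risen with library totals alone. Lfng, Mfng and Rfng, the 3 Fringe genes whose enzymes extend O-fucose and alter which ligands a receptor responds to, had log2 fold changes of -1.28 (SE 0.11), -1.88 (SE 0.20) and -1.16 (SE 0.12). Eogt, which encodes an O-GlcNAc transferase of the receptor's extracellular repeats, went from 20.98 to 25.7 CPM in control to 5.23 to 5.78 CPM in EV-treated libraries (log2 fold change -2.12, SE 0.12). Gxylt2, a xylosyltransferase gene, rose at a low level, from at most 0.0637 CPM in control to 0.153 to 0.299 CPM in EV-treated libraries (log2 fold change 2.26, SE 0.62).

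Among 17 genes of ligand and receptor ubiquitination and endocytosis, 7 rose and 5 fell. The counts were 7 fallen and 4 risen with library totals alone. Beside Dtx2, Nedd4l, a ubiquitin ligase gene, rose from 20.4 to 25.5 CPM in control to 77.0 to 99.2 CPM in EV-treated libraries (log2 fold change 2.03, SE 0.14). Neurl1a and Neurl1b, homologues of the fly Neuralized ligase that promotes ligand uptake, fell by 3.05 and 2.28 on the log2 scale. Neurl1a went from 23.4, 21.5 and 36.1 CPM to 3.18, 2.87 and 3.70 CPM.

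**Figure D4:**
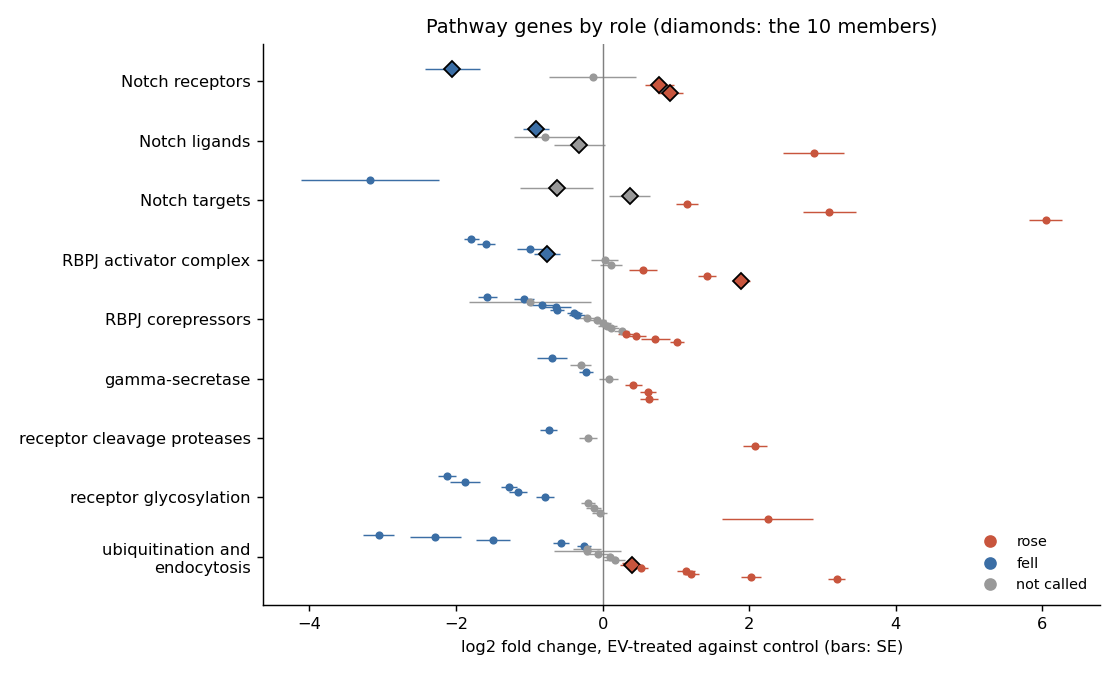
Log2 fold changes of EV-treated against control libraries (bars are SE) for the tested genes of each of the 9 role lists, with the 10 members as outlined diamonds, risers in red, fallers in blue and genes that did not pass in grey; Hey2, with 0 counts in all controls, has no bounded fold change and is not drawn. Most lists hold points on both sides of 0, and receptor glycosylation holds 5 fallers and 1 riser of 9.

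Markers of other cell types were read in the same libraries. Neural stem and progenitor markers summed to 56.1 to 98.0 CPM in control, mostly from Nes, and 6.95 to 8.40 CPM in EV-treated libraries, with 2 risers and 2 fallers of 4 tested and with Olig2, Sox1, Dcx and Msi1 among those under 0.1 CPM in every library. Astrocyte markers summed to 14.9 to 20.4 CPM in control and 94.9 to 131 CPM in EV-treated libraries, where 4 rose and 1 fell of 6 tested and Aqp4 was under 0.1 CPM. Oligodendrocyte lineage markers went from 68.1 to 73.6 CPM to 28.2 to 30.4 CPM, neuronal markers from 0.592 to 0.717 CPM to 2.39 to 2.67 CPM, and lymphocyte and granulocyte markers from 1.62 to 3.35 CPM to 24.0 to 33.2 CPM, the last almost all S100a8. The part of these in the levels of the members was not tested.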

How the data were processed

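Messenger RNA of 6 libraries was extracted with Trizol, selected for polyadenylated transcripts and made into libraries with the NEBNext Ultra kit, per the labels' protocols. Trimmomatic 0.36, STAR, Subread and DESeq2, with GRCm38, are named in the submitters' processing notes. How these were set, which annotation was used and whether strand was read is not given in the sources used here. Therefore overlapping and antisense genes cannot be told apart. The deposited values are raw counts per exon bin, whole numbers, per the file headers. The series table and the files of single samples held the same counts in all 6 libraries. Of 48005 entries, 1194 join overlapping genes, and 49298 of 49644 identifiers had a symbol.

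Counts were summed over the bins of an entry, filtered with filterByExpr (16605 kept), scaled by TMM (factors 1.09 to 1.16 in control, 0.855 to 0.921 in EV-treated libraries) and compared with edgeR 4.0.16 in R 4.3.3 (glmQLFit, glmQLFTest, no covariate, 2-sided). The SE is the log2 fold change over the square root of F. Bin use was tested with diffSpliceDGE. Transcript names and coordinates are from GENCODE on GRCm38. On simulated counts of 15726 genes, 56.5% of genes lowered and 73.5% of genes raised by a log2 of 1 were found by the gene test (87.2% and 95.8% for a log2 of 2), with 5 unchanged genes called. Only 46 to 49 genes were changed per size and direction, whereas 11037 entries were called in the data. These rates therefore need not hold for the data. Libraries of the same group differed by more than counting noise (chi-square over its degrees of freedom 81.4 to 243), so none was counted as a repeat. Intervals and floors cover counting error only.

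Members and gene lists were chosen with earlier results of these data known. Named genes are the 10 members, up to 2 risers and 2 fallers of each list with the smallest p, and Notch3, Dll1, Dll4, Hes5, Hey2 and Nrarp. Some genes that these rules and lists take are not reported here. Hes6, Hes7, Maml3, Crebbp, Mfng, Rfng, Adam17, Dtx3, Dtx3l, Rbpj-ps3, the individual marker genes, the 2 ratios and the blocks of bins were chosen after their values were seen. Alternatives were RLE, upper-quartile and library-total scaling, no filter, a stricter filter (50 counts in 3 libraries), DESeq2 1.42.0, limma-voom (limma 3.58.1), leaving out each library, a replicate block, the most covered bin and single-gene entries. Python 3.11.15 with pandas 2.3.3, scipy 1.17.1 and matplotlib 3.10.9 was used for the summaries.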

Additional observations from a re-analysis of the deposited data

How the results depend on the processing

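Of 156 results for the 10 members under 16 alternatives, 144 kept their direction and their side of the threshold, 10 were no longer called, 2 became called and 0 changed sign. Notch1 was not called with library totals alone (log2 fold change 0.41), nor was Notch4 by the most covered bin (-1.62). Dtx4 was not called with upper-quartile scaling (0.28), library totals alone (0.040) or limma-voom (0.38), and ranged from 0.27 to 0.55 with single libraries left out. Hey1 was called by the most covered bin (0.96), and ranged from 0.17 to 0.73 with single libraries left out, called without control A. With library totals alone, 2 members and 15 pathway genes rose, in place of 4 and 26. The causes were not tested.

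The Notch1 share of receptors ranged from -2.77 to 1.14 percentage points (EV-treated minus control) with single libraries left out, and changed sign without control C. The Notch4 share differed by -0.97 points with counts not divided by length, in place of -1.63. Notch3 ranged from -1.01 to 0.23 on the log2 scale with single libraries left out; it changed sign without control B (0.04), EV-treated A (0.23) or EV-treated B (0.04).

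With the replicate letter as a block, 5758 entries rose and 5851 fell of 16605, in place of 5482 and 5555, and the same 4 members rose and the same 3 fell. Same-letter libraries correlated by 0.035 (A), 0.167 (B) and 0.210 (C) in their deviations from the group means over 16605 entries; each library correlated best with its own letter, a hint from the data and not from the design, and with A under 0.1 the letters were not taken as pairs. The block changed no call of a member, and of the other named genes it changed that of Dll1, which became called as a fall. Counts per bin limit Hes1, Notch4 and Jag2 most.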
